A study of Nematostella vectensis with 84 samples.

Results

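The 80 genes described here were lower at the later time points than at T0 after calcium-free medium, and did not show that drop after cytochalasin D or streptomycin. The tissue was oral disc with tentacles of Nematostella vectensis, the starlet sea anemone. The genes were chosen from the measured values. A gene had to average at least 20 CPM (reads scaled to a common library size) over 83 libraries, which left 5912 of the 23510 gene models. For each treatment the drop, d, was the mean of log2(CPM + 5) over the later time points minus its mean at T0, so a negative d is a lower level later on. Genes with d of -0.3 or less in calcium-free medium and above -0.3 in both other treatments numbered 490, and the 80 in which the calcium-free d lay furthest below the smaller of the other d values were taken.

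Each library came from adults exposed to 1 of 3 treatments, calcium-free KSW (a medium whose abbreviation the labels leave unexplained), cytochalasin D or streptomycin, and every group had 6 libraries lettered A to F. Calcium-free KSW and cytochalasin D each had groups T0, T1, T2, T3 and T4, sampled hour by hour during recovery. Streptomycin had T0, T1, T2 and T3, which stand for lengths of exposure, each followed by 1 hour of recovery, so they are not recovery times. The labels give neither those lengths nor whether T0 lies before or after the trauma, no strain, sex or age is stated, no untreated series was analysed here, and the design text counts 3 replicates and 2 conditions where the labels show 14 groups of 6. No label ties a library to an animal of its own, so every p-value measures the spread between libraries, which may be technical.

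Sea anemone tentacles carry mechanoreceptors with bundles of actin-filled hairs that respond to moving prey. In vertebrate hair cells, removing calcium breaks the links between the hairs, and aminoglycoside antibiotics such as streptomycin harm the cells. Calcium also holds cadherin-based contacts between animal cells together, while cytochalasin D blocks the growth of actin filaments. The 80 members are numbered gene models whose identifiers matched 0 entries of the gene table used here, so none can be given a name, a function, a sequence or a cell type, and the labelled tissue could not be checked by its markers. In whole tissue, fewer cells of a type and less RNA per cell cannot be told apart.

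The libraries were shallow. Calcium-free libraries held 217221 to 591692 reads, cytochalasin D libraries 272537 to 584632 and streptomycin libraries 194043 to 354795, so that 1 read was worth 1.86 to 9.46 CPM. The 10 most-read genes made up 30.4% of the reads and were left out of the totals behind CPM; 0 of the 80 members were among them. The calcium-free T2 library F stood apart and did not enter the choice of members. Its highest correlation of log2 counts with another T2 library was 0.663, whereas the other 5 correlated at 0.86 or more, and the 10 most-read genes took 9.3% of its reads, against 17.2 to 45.5% elsewhere.

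Most members were of low abundance. Their mean levels ran from 20.2 to 1832.3 CPM with a median of 28.3 CPM, against a median of 46.5 CPM over the 5912 genes. Of the 80, 66 averaged under 50 CPM and 44 under 30 CPM. The median count of a member in a library was 6 reads, for which counting error alone is 40.8% of the value, and 30 members had reads in every library. NVE10051 and NVE14422 stood above the rest, NVE10051 at 1832.3 CPM and NVE14422 at 218.6 CPM.

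The values that chose the members are given as a description. In calcium-free KSW d ran from -1.03 to -0.32 with a median of -0.56, where the 5912 genes had a median of -0.05. In cytochalasin D it ran from -0.27 to 1.09 with a median of 0.19, and 65 of the 80 lay above 0. In streptomycin it ran from -0.28 to 1.05 with a median of 0.17, and 62 lay above 0. Most members were thus higher, not level, at the later points of both other treatments, and the choice favours this. The limit on the choice fell in a dense run of genes. The last member taken had a d of -0.53 in calcium-free KSW and a smaller other d of 0.02, and the first gene left out had -0.54 and 0.01.

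The median CPM over the 80 members was taken library by library. The gap between T0 and the later points chose the members, so these values are a description. In calcium-free KSW the group means in time order, T0 through T4, were 38.9 ± 1.29, 30.1 ± 3.29, 28.45 ± 1.75, 26.0 ± 3.15 and 25.05 ± 3.63 CPM (SD, n = 6, and n = 5 at T2). Every T0 library, from 37.8 to 40.6 CPM, lay above every later one, the highest of which had 35.4 CPM. In cytochalasin D the means, again T0 through T4, were 27.6 ± 3.41, 33.9 ± 2.36, 32.2 ± 3.91, 31.6 ± 3.52 and 33.9 ± 2.11 CPM (SD, n = 6). The T0 libraries there, 23.3 to 31.5 CPM, were the low ones; they overlapped the libraries of T1, T2 and T3 and lay below all T4 libraries, which began at 31.75 CPM. Streptomycin means, T0 through T3, were 24.04 ± 3.51, 27.9 ± 2.43, 29.99 ± 1.69 and 27.8 ± 2.81 CPM (SD, n = 6), with overlap between T0 and each later point.

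**Figure D1:**
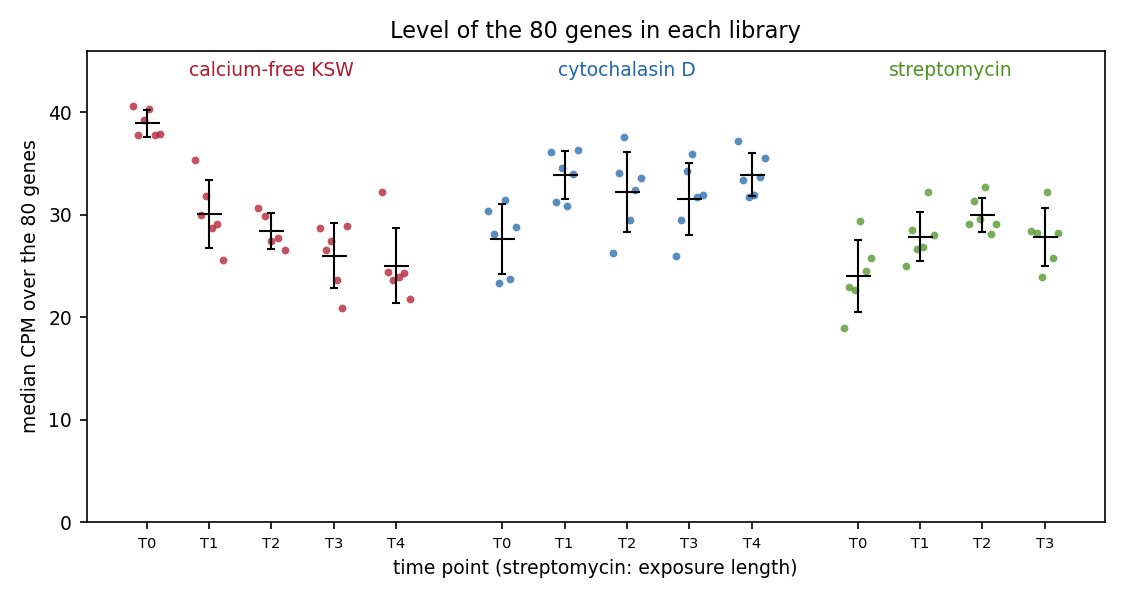
Median CPM over the 80 members in each library (points), with the mean (black bar) and SD (error bar) of each group, by time point, for calcium-free KSW, cytochalasin D and streptomycin. Calcium-free T0 libraries sit between 37.8 and 40.6 CPM, above all later calcium-free libraries, while in the other treatments T0 has the lowest mean. The gap between T0 and the later points was used in the choice.

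The medians over all 5912 genes moved less. They were 50.6, 50.6, 51.1, 48.4 and 45.6 CPM from T0 to T4 in calcium-free KSW. Over the same points the cytochalasin D medians were 48.6, 47.8, 46.85, 48.1 and 45.4 CPM, and the 4 streptomycin medians were 47.7, 43.9, 45.9 and 45.8 CPM. Set against T0 of the same treatment, the median change of the members was -0.40, -0.48, -0.62 and -0.73 (log2) from T1 to T4 in calcium-free KSW. The median change was thus below 0 at every later point and lowest at T4, in a contrast that chose the members. The corresponding changes were 0.24, 0.22, 0.17 and 0.16 for the cytochalasin D points, and 0.13, 0.27 and 0.23 for the streptomycin points.

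Many members were at their highest at calcium-free T0, which the choice favours. Calcium-free T0 was the highest of the 14 groups for 36 of the 80 members, whereas it was so for 11% of all 5912 genes. Cytochalasin D T1 was highest for 15 members (8.7% of all genes) and cytochalasin D T2 for 10 (4.0%). The 4 later calcium-free groups were highest for 2 members in all. Over all genes these groups, T1 through T4, were highest for 9.6%, 14.0%, 5.9% and 5.2%. The members' level at calcium-free T0 exceeded that at cytochalasin D T0 by a median of 0.46 (log2; higher in 73 of 80; 0.05 over all genes) and that at streptomycin T0 by 0.75 (higher in 79 of 80; 0.14 over all genes). Averaged over the later points, calcium-free levels differed from cytochalasin D by a median of -0.25 (lower in 65 of 80; 0.04 over all genes) and from streptomycin by 0.0 (lower in 40 of 80; 0.13 over all genes). The choice rests on both T0 and the later points, and a T0 library weighs more in d than a later one. Neither set of differences was therefore tested. The median library had 311788 reads at calcium-free T0, against 334009 at cytochalasin D T0 and 270498 at streptomycin T0. The running numbers in the library titles of cytochalasin D all lie above those of the other treatments, so cytochalasin D and whatever those numbers stand for cannot be told apart.

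**Figure D2:**
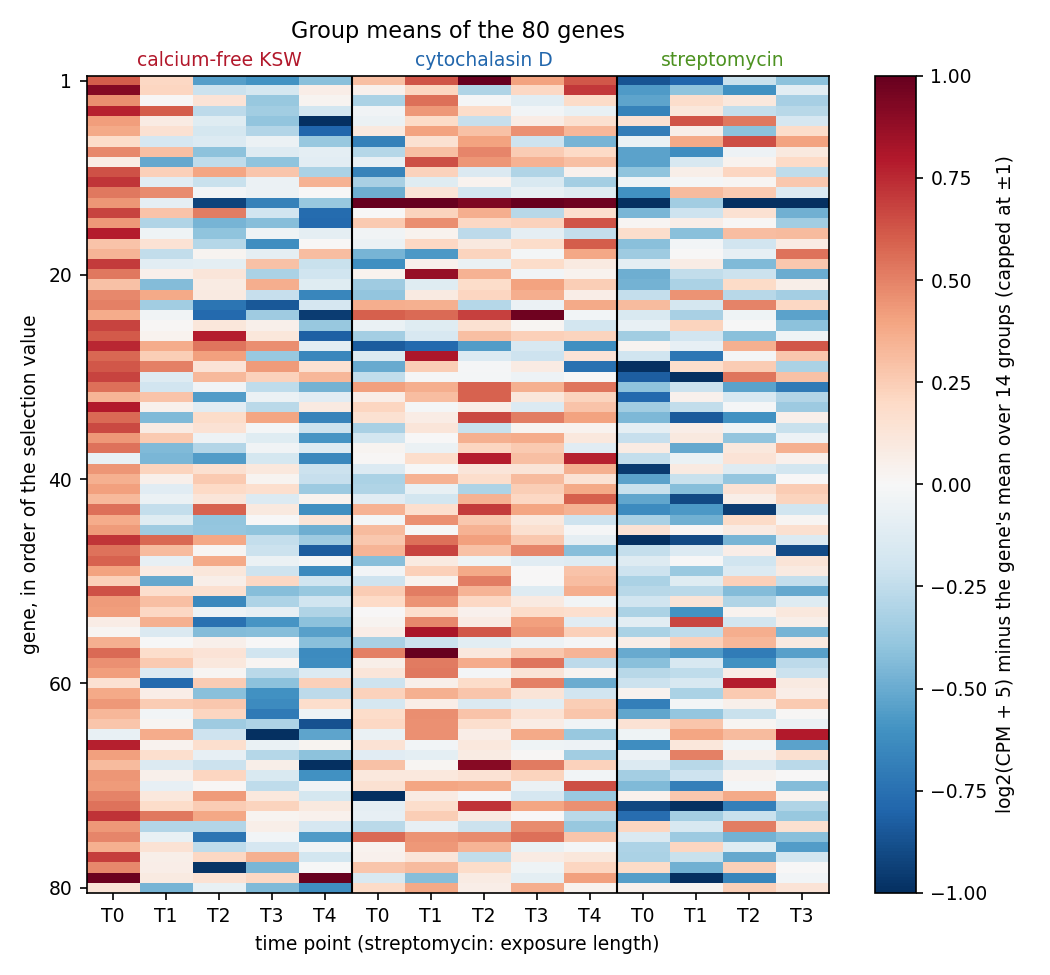
Group means of log2(CPM + 5) for each of the 80 members (rows, in order of the selection value) in the 14 groups (columns), as the difference from that gene's mean over groups, with colours capped at 1 on either side of 0. Red is higher and blue lower. Calcium-free T0 is the highest group for 36 of the 80, which the choice favours.

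Few single genes separated the groups completely. All later libraries lay below all T0 libraries of calcium-free KSW in 1 member for T1, in 3 for T2, in 3 for T3 and in 12 for T4. The same held for 0.135%, 0.288%, 0.626% and 1.83% of the 5912 genes. The choice used this contrast, so nothing is read from those counts. Of the T0 libraries, A was the highest for 19 members, D for 17, F for 16, B for 12, E for 9 and C for 7.

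The 2 genes with the lowest selection values were both of low abundance. NVE23913, the first of them, had a calcium-free d of -0.95, a cytochalasin D d of 0.39 and a streptomycin d of 0.38. Its calcium-free libraries ran at T4 from 4.9 over a median of 17.5 to 23.97 CPM, against T0 from 7.8 over 33.8 to 90.6 CPM. The groups overlapped, and its T0 libraries spread more than 10-fold. NVE15693 had a d of -0.94, 0.16 and 0.19 in the same treatments. At T4 of calcium-free KSW it ran from 11.99 to 37.9 CPM with a mean of 21.54 CPM. Its T0 libraries ran from 20.1 to 88.4 CPM with a mean of 45.1 CPM, again with overlap.

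NVE10051, the most abundant member, had a calcium-free d of -0.96, a cytochalasin D d of -0.12 and a streptomycin d of 0.00. Calcium-free means, T0 through T4, were 1976.9 ± 861.7, 1369.2 ± 628.8, 728.6 ± 245.0, 1001.0 ± 572.7 and 1141.2 ± 539.0 CPM (SD, n = 6, and n = 5 at T2). Its mean was lowest at T2 and higher again at T4, whereas the median change over the members was lowest at T4. The libraries overlapped, with 521.25 to 1118.87 CPM at T2 and 449.53 to 1855.48 CPM at T4. edgeR's F test among T1 to T4 of calcium-free KSW did not call the gene (adjusted p = 0.426). T2 was the lowest of the later calcium-free points for 13 members, so a low T2 is not particular to this gene. Its cytochalasin D means, 2682.8 to 4007.2 CPM, were above all calcium-free means, and its streptomycin means ran from 489.7 to 1209.4 CPM.

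Whether the members went on changing during recovery was asked from T1 onward. The choice used the mean of the later points, not the differences among them. T1 and T4 are both part of that mean, so the choice may shape the gap between members and all genes, which was not tested. In calcium-free KSW the median T4 minus T1 difference over the 80 members was -0.29 (log2 of CPM + 5), with quartiles of -0.59 and -0.04, and 63 of 80 (78.8%) were lower at T4. All 5912 genes moved the same way, with a median of -0.11, quartiles of -0.40 and 0.16, and 61.0% lower. Scaling by TMM, the trimmed mean of M values, gave -0.20 for the members and -0.04 for all genes, and scaling by column totals -0.41 and -0.24. In cytochalasin D T4 minus T1 was -0.09 over the members, 52 of which were lower, and -0.06 over all genes, 56.1% of which were lower. In streptomycin T3 minus T1 was 0.11 over the members and 0.08 over all genes. T4 was the lowest of the later calcium-free points for 39 members, T3 for 18, T2 for 13 and T1 for 10. Over all genes T4 was the lowest for 40.3%, T3 for 22.9%, T2 for 14.9% and T1 for 21.8%.

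**Figure D3:**
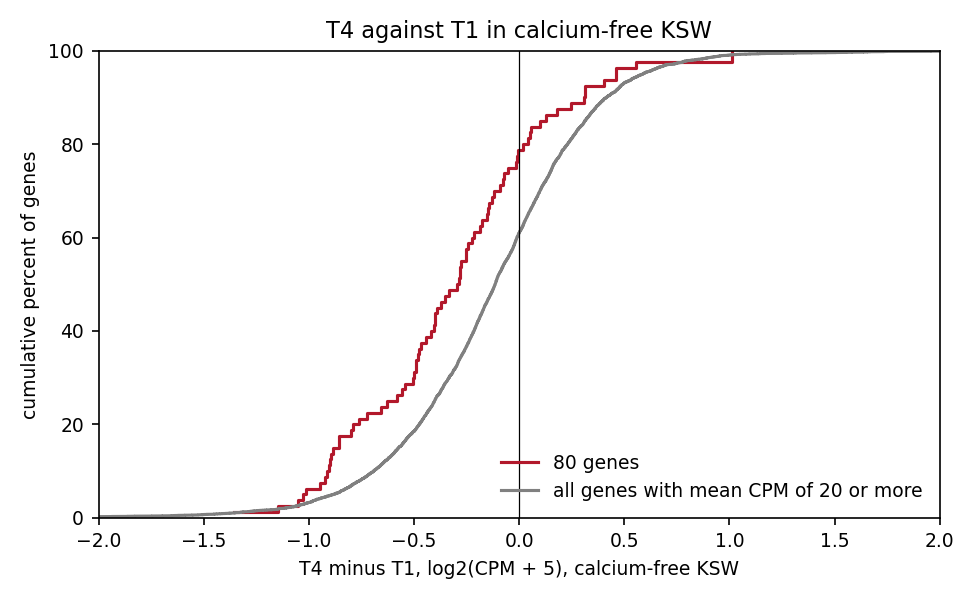
Cumulative percent of genes against the T4 minus T1 difference (log2 of CPM + 5) in calcium-free KSW, for the 80 members (red) and all 5912 genes (grey); the axis shows differences from -2 to 2. Over most of the axis the members lie to the left of all genes, with a median of -0.29 where all genes have -0.11. T1 and T4 were both part of the later mean used in the choice.

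Gene by gene, that later change was tested with edgeR's quasi-likelihood test over all genes that passed its filter on low counts, at an adjusted p under 0.05. In calcium-free KSW 37 of the 80 members passed the filter among 4473 genes. The filter also used the T0 libraries, where the choice makes members high, so some members passed only with the help of T0. This holds for every test below that used calcium-free libraries, so member shares set against all tested genes are a description. At T4 against T1 2 members were called, both lower, where 2.75% of all tested genes were called and 1.23% were called lower. An F test for any difference among T1 to T4 called 0 of the 37, where it called 0.76% of all tested genes; the lowest adjusted p of a member was 0.0888. At an unadjusted p under 0.05 it held 4 of the 37 members (10.8%), against 16.4% of all tested genes. DESeq2 called 0 members as well, and 2.01% of all tested genes.

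NVE21285 fell at T4. It had 21.7 to 36.0 CPM at T4 with a median of 29.2, against 46.01 to 120.3 CPM at T1 with a median of 62.7. Every T4 library lay below every T1 library, on 3 to 6 reads per library at T4 and 9 to 34 at T1. The log2 difference was -1.24 ± 0.29 (SE; edgeR adjusted p = 0.0209). The calcium-free means declined over the series, with 85.3, 74.7, 60.3, 49.2 and 29.5 CPM from T0 through T4. The call was lost without T1 library A (edgeR adjusted p = 0.0636) or T4 library F (0.0534), with T2 library F kept (0.0717), and with letter pairs summed (0.144). The gene was also low at T4 of cytochalasin D, with 27.8 to 69.3 CPM and a median of 36.8, against 68.0 to 102.7 CPM and a median of 96.7 at T1, so that the groups overlapped there. In 1 fit of both treatments the difference between these changes was -0.17 ± 0.43 (SE, calcium-free minus cytochalasin D; edgeR adjusted p = 0.972).

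NVE14422 fell as well at T4 of calcium-free KSW. Its T4 libraries ran from 87.9 to 203.8 CPM with a median of 134.3, against 175.7 to 421.1 CPM with a median of 228.2 at T1. The groups overlapped, with T4 library D above 3 of the T1 libraries. The log2 difference was -0.84 ± 0.24 (SE; edgeR adjusted p = 0.0484), just inside the threshold. It was lost without any of 15 of the 29 libraries, with adjusted p up to 0.139, those being T0 A and E, T1 A, D and E, T2 E, T3 A, C, D and E, and T4 A, B, C, E and F. It was also lost in 1 fit of all 83 libraries (edgeR adjusted p = 0.0657), with T2 library F kept (0.143) and with letter pairs summed (0.237). The gene was also called between letter pairs in calcium-free KSW (edgeR adjusted p = 0.0313), a call lost in the fit of 83 libraries (0.35), with T2 library F kept (0.177) and with DESeq2 (0.0904). In cytochalasin D this gene averaged 173.99 ± 51.4 CPM at T4 and 307.9 ± 112.3 CPM at T1 (SD, n = 6 each). Its change there differed from the calcium-free one by -0.05 ± 0.40 (SE, calcium-free minus cytochalasin D; edgeR adjusted p = 0.999).

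**Figure D4:**
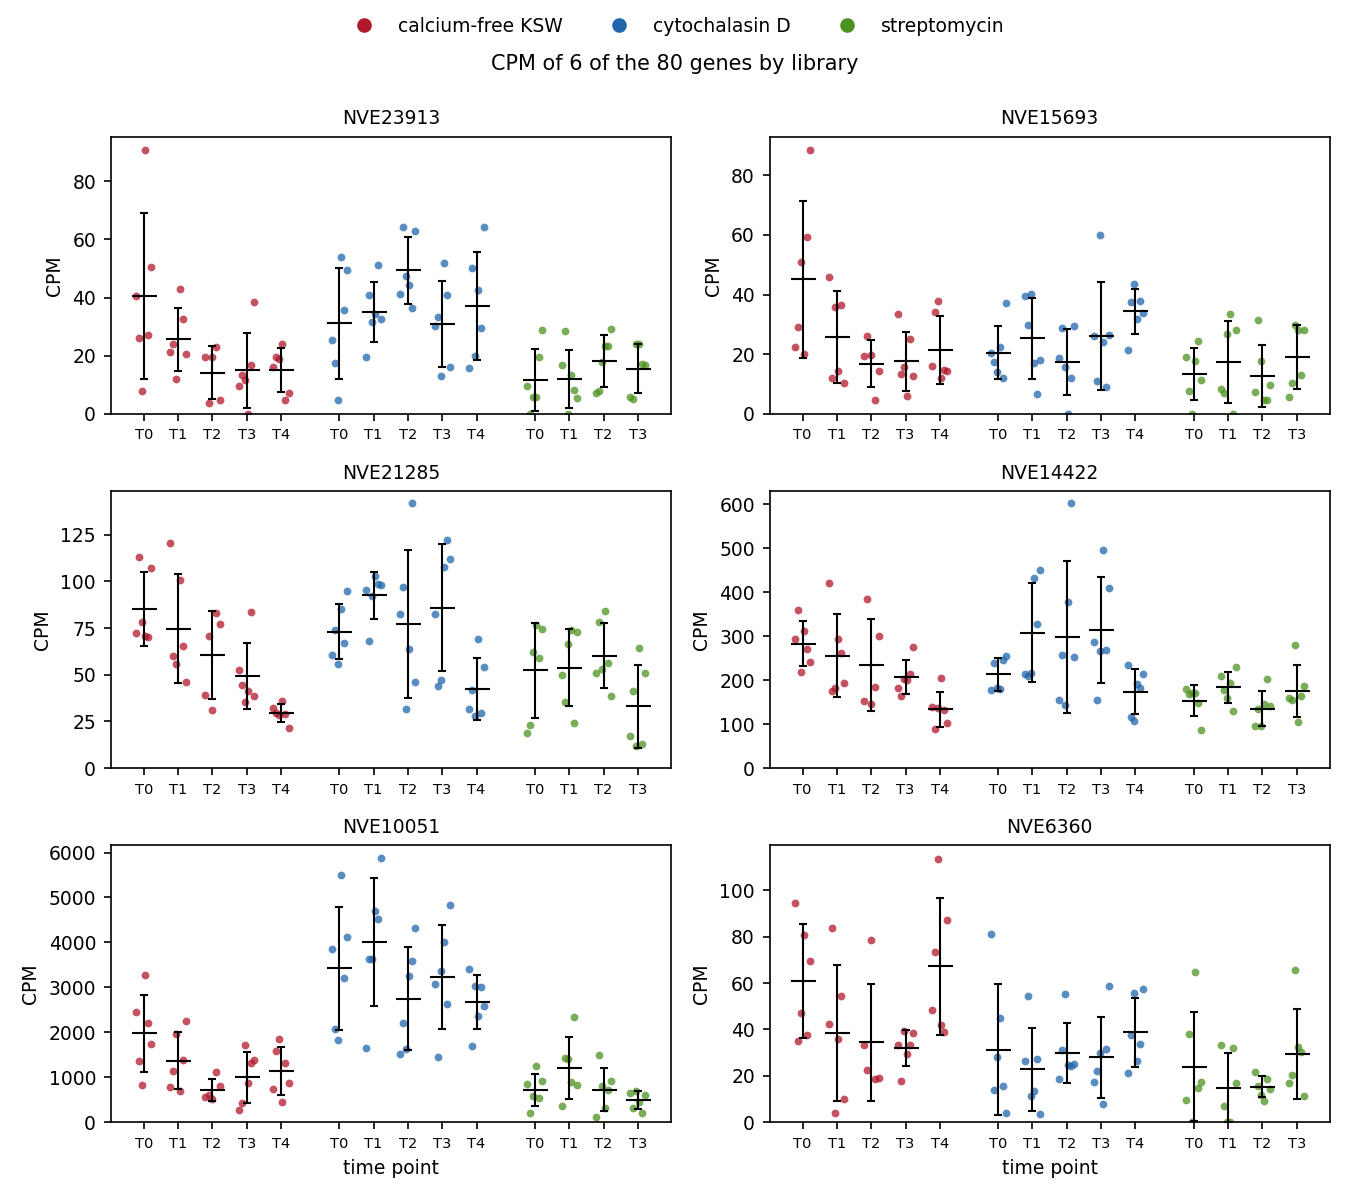
CPM of 6 members in each library (points), with the mean (black bar) and SD (error bar) of each group, by time point in calcium-free KSW, cytochalasin D and streptomycin. NVE21285 has all calcium-free T4 libraries between 21.7 and 36.0 CPM, below all T1 libraries, and is low at T4 of cytochalasin D too.

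The same comparison between treatments, calcium-free against cytochalasin D at T4 minus T1, was made for all genes in 1 fit. edgeR called 0 of the 63 members tested, where it called 0.0185% of 5404 genes. An unadjusted p under 0.05 was reached by 5 members (7.94%) and by 6.85% of all genes. So the members did not pass a test for a calcium-free change beyond the cytochalasin D one, which does not show that the changes were alike.

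In cytochalasin D 49 members passed the filter and 1 was called among T1 to T4, where 3.09% of all tested genes were called and 2.07% were called with a lower level at T4 than at T1, as it had. This gene, NVE14161, had medians of 80.8 CPM at T1 (52.6 to 98.6), 36.8 CPM at T2 (28.3 to 51.7), 44.1 CPM at T3 (34.7 to 53.2) and 48.9 CPM at T4 (21.3 to 84.3). All T2 libraries lay below all T1 libraries, whereas T4 overlapped T1 (edgeR F test adjusted p = 0.0348). The call was lost without T1 library D (edgeR adjusted p = 0.114), E (0.126) or F (0.101), T2 library A (0.0596) or E (0.0507), or T3 library C (0.0513). It was also lost with no filter (edgeR adjusted p = 0.0519), in the fit of 83 libraries (0.0839) and with letter pairs summed (0.141). Its calcium-free means, T0 through T4, were 56.8, 40.8, 38.98, 32.7 and 27.2 CPM. In streptomycin 14 members passed and edgeR called 0 among T1 to T3, where it called 0.14% of all tested genes. An unadjusted p under 0.05 was held by 2 members (14.3%) and by 13.2% of all tested genes. DESeq2 called 0 members there and 0.908% of all tested genes.

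The choice was also repeated without 1 calcium-free library, and the new 80 genes were then read in the library left out. Only 1 side of the difference is new in such a reading, since the other side holds libraries that chose the genes, so the values are a description. The drop is given as the median over the chosen genes minus that over all genes, as later minus T0. With a T0 library left out, the drop measured from that library was -0.32 for A, -0.14 for B, -0.16 for C, -0.17 for D, -0.12 for E and -0.09 for F, with a median of -0.15. In the T0 libraries that took part in the choice it was -0.60 to -0.50. Each left-out T0 library thus gave a smaller drop than the libraries that chose the genes, and its sign leans on the later libraries, which were chosen to be low. Left-out libraries of T1 gave -0.48 to -0.20, those of T2 -0.59 to -0.31, those of T3 -0.56 to -0.21 and those of T4 -0.59 to -0.32, where the libraries used gave -0.67 to -0.42. These are set against the T0 libraries that chose the genes. Between 47 and 62 of the 80 were chosen again without 1 T0 library, 47 of them without library F, and 71 to 77 without 1 later library; a T0 library weighs more in d than a later one by construction.

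**Figure D5:**
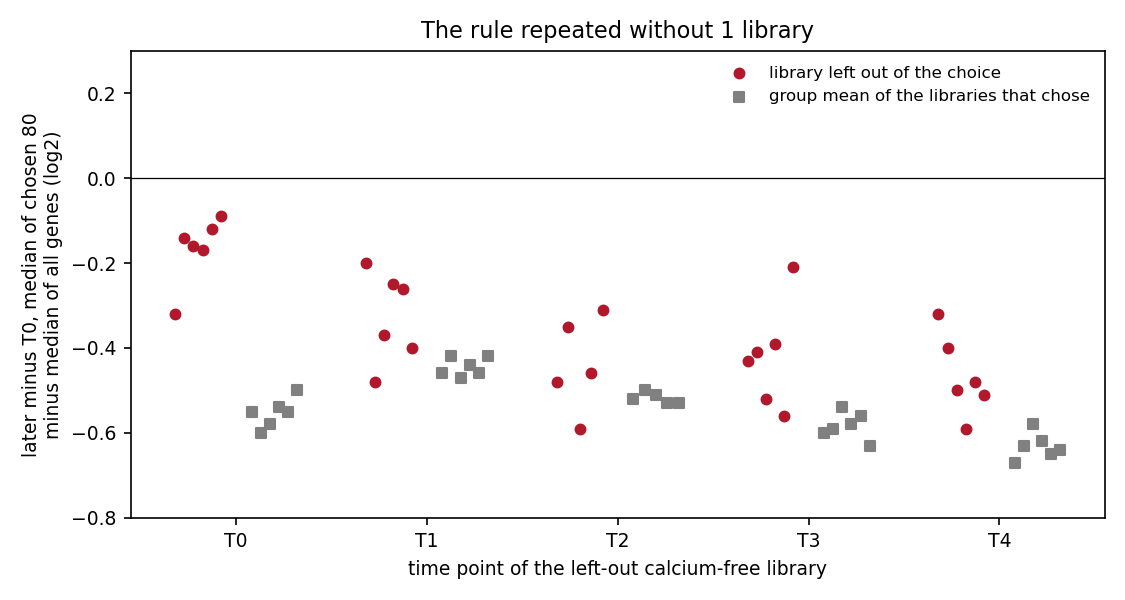
Later minus T0 difference (log2, median over the 80 chosen genes minus median over all genes) in the library left out of the choice (red circles) and in the group means of the libraries used for it (grey squares), by the time point of the library left out. T0 libraries left out give -0.32 to -0.09, above the -0.60 to -0.50 of the libraries used.

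The calcium-free T2 library F, which the choice did not use, was read against the T0 libraries that it did use. Its difference from the T0 mean was a median of -0.57 over the members, 70.0% of which were lower, but also -0.52 over all genes, 61.6% of which were lower. The other T2 libraries had medians of -0.63 to -0.37 over the members. The spread over members was wider in F, with an interquartile width of 1.63 against 0.54 to 0.99 in the others. With column totals the medians were -0.23 over the members and -0.18 over all genes, and with TMM -0.28 and -0.24, so the members and all genes lay close together in F under each scaling.

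Within groups, members varied together about as little as other genes. The median correlation between pairs of members, after each group's mean was taken out, was 0.017 over 29 calcium-free libraries, 0.014 over 30 in cytochalasin D and 0.013 over 24 in streptomycin. The same quantity over all genes was 0.018, 0.011 and 0.019. The points are libraries of differing depth, with a median of 6 reads per member. The biological coefficient of variation fitted by edgeR was 28% for the tested members and 19.8% for all tested genes in calcium-free KSW. In cytochalasin D these were 24.8% and 19.4%, and in streptomycin 19.8% and 17.4%. The choice took extreme differences between group means, and most members were of low abundance, so these values are a description. What part either has in the gap was not tested.

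Some members differed between letters within a group. The libraries were paired as A and D, B and E, and C and F, a grouping seen in these data that the labels do not give. Values from the same libraries cannot support that pairing, so p-values between letter pairs are a description of these libraries. Deviations from the group mean had a median correlation of -0.037 in the 41 such pairs and -0.251 in the other pairs of libraries. Deviations from a shared mean correlate negatively by construction, so only the gap between these values can be read. It comes from the data in which the pairing was seen. edgeR's test for differences between these letter pairs called 6 of 37 calcium-free members, where it called 7.27% of all genes. That count rests on the settings: DESeq2 called 2 of 37 (5.5% of all genes), edgeR called 1 of 36 with T2 library F kept (5.63%), and leaving out 1 library gave 3 to 7. It was 3 without T1 A, T1 C or T2 E. Shares over all genes in the fits without 1 library are not given here, so nothing is read from that range. edgeR called 2 of 49 members in cytochalasin D (5.05% of all genes) and 1 of 14 in streptomycin (9.92%), shares near that background.

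NVE6360 differed between letter pairs in calcium-free KSW (edgeR adjusted p = 0.00102) and in cytochalasin D (0.0341). At calcium-free T1 it had 83.9 and 54.6 CPM in B and E, 42.5 and 35.9 CPM in A and D, and 4.0 and 10.2 CPM in C and F. At T4 C and F were the high ones, with 113.6 and 86.97 CPM, against 38.9 to 73.2 CPM in the other 4. The same letters led at those points in cytochalasin D, with 54.4 and 27.2 CPM in B and E at T1 and 55.6 and 57.5 CPM in C and F at T4. The cytochalasin D call was lost in 14 of 30 fits that left out 1 library, and with DESeq2 (adjusted p = 0.231).

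NVE10051 differed between letter pairs in streptomycin (edgeR adjusted p = 9.71e-06) and in calcium-free KSW (0.0153). At calcium-free T1 it had 1960.0 and 2254.7 CPM in C and F, 1142.3 and 1376.3 CPM in B and E, and 782.0 and 700.2 CPM in A and D. At T0 of the same treatment A and D had 2461.1 and 3267.7 CPM, B and E 1374.1 and 2201.7 CPM, and C and F 819.2 and 1737.3 CPM. A and D were thus the highest at T0 and the lowest at T1, while C and F differed from each other at T0. The calcium-free call was lost without T4 library D (edgeR adjusted p = 0.0507), with T2 library F kept (0.116) and with DESeq2 (0.176).

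NVE9964 was called between letter pairs in calcium-free KSW (edgeR adjusted p = 0.00572) and NVE13323 in cytochalasin D (0.00893). The first call was lost with T2 library F kept (edgeR adjusted p = 0.107), the second with DESeq2 (0.198). NVE9964 had 160.6 and 135.1 CPM in B and E at T2, against 74.5 to 92.5 CPM in A, C and D, with F left out. NVE13323 had 109.5 and 93.1 CPM in B and E at T2 of cytochalasin D, against 33.6 to 54.0 CPM in the other 4. At T3 the same gene had 22.1 and 27.2 CPM in B and E, against 63.9 to 81.4 CPM in the others, so those letters turned from the highest to the lowest.

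Letters D to F against A to C in calcium-free KSW separated 1 of 37 members, where 9.57% of all tested genes were called. NVE9363 was higher in D to F by 0.67 ± 0.14 (log2, SE; edgeR adjusted p = 0.00178), and adjusted p lay between 0.000421 and 0.0057 when any 1 library was left out. At T1 it had 93.4, 80.1 and 148.3 CPM in D, E and F, against 56.6, 59.9 and 55.7 CPM in A, B and C. At T2 it had 134.1 and 115.8 CPM in D and E, against 44.6, 71.0 and 66.6 CPM in A, B and C. T2 library F, which was left out, had 29.8 CPM, below all of these. With it kept the log2 difference was 0.59 (edgeR adjusted p = 0.0356). At T0 the letters overlapped, with 97.1 to 146.02 CPM in D to F and 58.1 to 129.4 CPM in A to C. Whether letter differences play a part in the members' drop from T0 was not tested. In another contrast, T4 minus T1 in calcium-free KSW, the median was -0.33 without the 7 members called between letter pairs in any treatment. That contrast does not bear on the drop from T0.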

How the data were processed

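The authors deposited raw counts, 1 row for each of 23510 gene models and 1 column for each of 84 libraries, with no scaling; every column matched the title of 1 sample, 0 sample columns were unused and no columns were identical. Per the labels, libraries followed a published tag-based protocol; reads were handled with Bowtie2, per the submitters' processing notes. The sources used here do not give the genome build, annotation, counter, strand use or use of molecular identifiers, so near-identical or overlapping genes may have been split or joined.

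The members, tests and alternatives were chosen with earlier results of these data known. CPM used column totals without the 10 most-read genes, and a pseudocount of 5 CPM on the log2 scale, which understates changes of low genes. Calcium-free T2 library F was left out except where stated. The later against T0 contrasts chose the members and were not tested. Tests used edgeR 4.0.16 in R 4.3.3 (filterByExpr by group, TMM, glmQLFit, glmQLFTest; 1 fit per treatment; Benjamini-Hochberg over all tested genes, threshold 0.05), and were checked on simulated counts. The simulated counts had the same variability for every gene and no likeness between letter pairs, so that check does not cover such likeness. SEs were derived from the F statistic. The test of calcium-free against cytochalasin D changes was added after seeing the data. Alternatives were DESeq2 1.42.0, no filter, 1 fit of 83 libraries, library F kept and a replicate block by letter. Further ones were summed letter pairs, other scalings and pseudocounts, and leaving out each library. For D to F against A to C the block was by letter pair within time points. Shared letters were not taken as pairs: 0 of 26 pairs of groups within a treatment had every same-letter correlation of deviations above 0.1. That limit is strict, since a single low correlation fails it, so it cannot exclude a pairing by letter. In calcium-free KSW a block by letter took the edgeR calls over all genes from 34 to 137 among T1 to T4. At T4 against T1 it took them from 123 to 301. Identifiers named are the 2 members with the lowest selection value, the 2 with the highest mean CPM, and up to 2 called members per test and direction with the lowest p. Identifiers matched 0 entries of the gene table (assembly jaNemVect1.1). Totals of 194043 to 591692 reads per library limit precision, and counting error covers reads only.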

Additional observations from a re-analysis of the deposited data

Results flagged for a closer look

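In 10 sets of 5 or 6 libraries (the members' median or a named member within 1 group), 1 library lay far from the rest relative to the range of its group. Chance gives about 1 in 20 such sets, or 7.7 of those checked.

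The median CPM over the 80 members was 32.2 in calcium-free T4 library A, where the other T4 libraries had 21.7 to 24.4; the T4 mean of 25.05 CPM includes it.

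Single members gave the other 9. NVE6360 had 78.4 CPM in calcium-free T2 library C (18.5 to 33.5 in the others) and 55.35 CPM in cytochalasin D T2 library C (18.8 to 31.0), the same letter and time point in both treatments. NVE21285 had 83.5 CPM in calcium-free T3 library E (35.2 to 52.6) and 68.0 CPM in cytochalasin D T1 library B (92.2 to 102.7). Streptomycin T0 library F was far from its group in NVE14422, with 86.1 CPM (147.1 to 179.8), and in NVE9964, with 149.2 CPM (66.2 to 94.1). NVE14161 had 71.3 CPM in streptomycin T1 library B (6.7 to 25.1). NVE15693 had 59.96 CPM in cytochalasin D T3 library C (9.1 to 26.6), and NVE13323 had 81.2 CPM in cytochalasin D T4 library F (47.8 to 58.99). At 1.86 to 9.46 CPM per read, a value such as 59.96 CPM rests on few reads.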

How the results depend on the processing

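Membership depended on scaling: 37 of the 80 were chosen again with column totals, 35 with TMM, 64 with a pseudocount of 1, 54 with a pseudocount of 20 and 66 with T2 library F kept. The median d in calcium-free KSW was -0.68 with a pseudocount of 1 and -0.38 with 20, and -0.61 to -0.53 without any 1 library (0.16 to 0.22 in cytochalasin D, 0.13 to 0.24 in streptomycin). The median T4 minus T1 difference was -0.41 with column totals and -0.37 to -0.27 without any 1 library. The median difference of T2 library F from T0 was -0.23 with column totals and -0.28 with TMM (all genes -0.18 and -0.24).

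Counts of called members were small and moved with the settings; the cause was not tested. With no filter, which tests all 80 members, the later time points gave 3 called members in calcium-free KSW (1.44% of all genes called), 3 with cytochalasin D (1.91%) and 1 with streptomycin (0.559%). Letter pairs then gave 9 in calcium-free KSW (2.54%), 5 with cytochalasin D (2.34%) and 4 with streptomycin (2%), and letters D to F against A to C gave 2 (1.63%). One fit of 83 libraries called 0 among T1 to T4 in cytochalasin D by edgeR (4 at an unadjusted p under 0.05; 3.85% of all genes called) and 3 between letter pairs in streptomycin (5.33%). Between letter pairs DESeq2 called 2 calcium-free members (5.5% of all genes) and 0 in cytochalasin D (2 at an unadjusted p under 0.05; 4.23% of all genes). With T2 library F kept, edgeR called 0 at T4 against T1 (4 unadjusted; 0.208% of all genes called) and 1 between letter pairs (5.63%). Summed letter pairs gave 0 at T4 against T1 (9 unadjusted; 0% of all genes called) and 0 among T1 to T4 in cytochalasin D (7 unadjusted; 0.846%) by edgeR. Leaving out 1 library gave 0 to 2 at T4 against T1 and 0 to 1 among T1 to T4 in cytochalasin D. Between letter pairs it gave 3 to 7 in calcium-free KSW and 1 to 3 in cytochalasin D. The other counts stayed at 0, 0, 1 and 1. Shares over all genes in those fits are not given here, so nothing is read from these ranges.

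Over all genes, calls among T1 to T4 in calcium-free KSW numbered 34, against 323 with no filter, 107 in the fit of 83 libraries, 90 by DESeq2, 4 with T2 library F kept and 1 with summed pairs; at T4 against T1 they were 123, against 316, 221, 9 and 0 with no filter, the fit of 83, library F kept and summed pairs.

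For D to F against A to C the block was by letter pair within time points. It called 4 of 37 members, where 16.8% of all genes were called. The replicate block by letter called 3.06% of all genes among T1 to T4 and 6.73% at T4 against T1 of calcium-free KSW. The block by letter left the member counts at 0, 1, 0 and 2 in the tests of later time points. The labels do not say what a shared letter stands for within a treatment, and the letter pair tests have no block fit.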
